A study of Mus musculus with 50 samples.

Results

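The comparison set tracheal perfusate of Stat6+/- mice with IL-13 against perfusate of mice with IL-13 that lacked Stat6 and carried the mark Epi+. It held 10 of the 50 arrays of the series, 5 in each group, chosen by the group that the array titles give. Stat6 is the transcription factor that carries the signal of interleukin 13 (IL-13) and interleukin 4 into the nucleus. In the airway, IL-13 is known for mucous cell formation, mucin production and recruitment of eosinophils. The first group was Stat6+/- and had IL-13. The second was Stat6-/-, Epi+ and had IL-13 as well. In mouse lines of this name a transgene restores Stat6 in airway epithelial cells on a Stat6-/- background, but the labels give only the mark. No source used here gives the promoter of the transgene, the route of any IL-13 given, or the age and strain of the mice. The array titles name IL-13 but not whether it was given or made by the mice. The comparison asks which perfusate RNAs differ when Stat6 can be present in all cells and when it may be present in the epithelium alone.

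Perfusate RNA was hybridised on 2-colour spotted arrays against a reference, and each value is the log2 ratio of a spot. No source used here states its direction, and sample over reference is the likely one. Read that way, Il13 was higher than in phosphate-buffered saline (PBS) perfusate by 2.05 in Epi+ and by 1.74 in Stat6+/-. The 5 reference preparations, numbered 1.1 to 1.5, each served 1 array of each group, so that the 10 arrays form 5 pairs. Other perfusate groups on the same preparations were Stat6-/- mice with IL-13, PBS and ovalbumin (OVA), with 5 arrays each. The labels state 1 round of amplification for all of the 10 arrays but Epi+ replicate 16, on preparation 1.3, whose label gives no amplification step. Between 18240 and 18585 spots had a value on the 10 arrays. Separate animals are named by no label, and the spread that the p-values rest on may be technical. In RNA of a cell mixture, fewer cells of a type and less RNA per cell cannot be told apart.

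Levels below are log2 ratios after subtraction of each array's median, and differences are Stat6+/- minus Epi+ with their standard error (SE). They come from a limma model of the 25 perfusate arrays with the reference preparation as a block, and adjusted p-values are Benjamini-Hochberg values over 16873 probes. Values listed for a group run from preparation 1.1 to 1.5. Of those probes, 4 passed an adjusted p of 0.05, which is 0.0237%. An unadjusted p under 0.05 was reached by 1184 (7.02%), of which 638 were higher in Stat6+/- (3.78%) and 546 lower (3.24%). Among 15675 probes with a value on all 10 arrays, 4.47% were higher in Stat6+/- in all 5 preparations and 5.6% were lower in all 5. The groups did not overlap at 0.293% of these probes with Stat6+/- higher and at 0.344% with Stat6+/- lower.

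Of the 4 probes that passed, 3 were higher in Stat6+/- (0.0178% of those tested) and 1 was lower (0.00593%). Those with a gene name were Clca3b, Dnajb1 and Hp. The other, an unlisted spot, carries no gene name in the platform annotation. For these probes, comparisons with Stat6-/- or PBS perfusate reuse the arrays on which they were picked. Such comparisons are no separate support for which group differs.

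Clca3b is a paralogue of Clca1 in the family of calcium-activated chloride channel regulators, which hold a metalloprotease-like domain. Its levels were 1.46, 0.61, 1.03, 1.05 and 1.78 in Stat6+/- and -0.63, -0.62, -0.44, -0.76 and -0.90 in Epi+. Every Stat6+/- array lay above every Epi+ array. The difference was 1.86 ± 0.27, a 3.62-fold higher ratio, with an adjusted p of 0.0319 in limma. For comparison, the mean level was -1.61 in Stat6-/- and -1.05 in PBS perfusate. Epi+ lay 0.94 above Stat6-/- (adjusted p = 0.195) and 0.38 above PBS (adjusted p = 0.436), neither of which passed.

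Dnajb1, an Hsp40 cochaperone that stimulates the ATPase of Hsp70, was higher in Stat6+/- in all 5 preparations. Stat6+/- levels were -0.84, 0.20, 0.32, -0.41 and -0.99 against Epi+ levels of -1.42, -1.39, -2.20, -1.53 and -2.09. The groups did not overlap. The difference of 1.38 ± 0.23 had an adjusted p of 0.0496. Over the arrays with a value, Stat6-/- and PBS perfusate had mean levels of -1.11 and -0.90, between the means of -0.34 in Stat6+/- and -1.73 in Epi+.

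Hp encodes haptoglobin, the plasma and airway protein that binds free haemoglobin. Stat6+/- levels were -1.33, -1.09, -1.71, -1.72 and -1.72, and Epi+ levels were -0.06, -0.50, -0.53, -0.21 and -0.26. All Stat6+/- arrays lay below all Epi+ arrays. The difference was -1.20 ± 0.19, with an adjusted p of 0.0400. Unlike Clca3b, Hp also passed between Epi+ and both groups without Stat6 signalling or without IL-13. Epi+ lay below Stat6-/- by a difference of -1.32 (adjusted p = 0.00162) and below PBS by a difference of -1.15 (adjusted p = 0.00291). The order of the means was thus Stat6-/- at 1.01, PBS at 0.84, Epi+ at -0.31 and Stat6+/- at -1.52, and the first 2 differed by less than the spread of the Stat6-/- arrays (SD 0.36).

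The unlisted spot had levels of 0.53, 0.24, 0.32, 0.69 and 1.10 in Stat6+/- and of -1.06, -0.48, -0.90, -0.53 and -0.71 in Epi+. The groups did not overlap, and the difference was 1.31 ± 0.22 (adjusted p = 0.0496). Calls near the threshold depended on single arrays. The count was 0 without Stat6+/- replicate 6 or 8 or without Epi+ replicate 16, 17, 19 or 20, 1 without Epi+ replicate 18, 15 without Stat6+/- replicate 4 and 18 without Stat6+/- replicate 5. Clca3b passed under 11 of 26 other settings and Hp under 9 of 26, Dnajb1 under 4 of the 22 that gave it a value, and the direction of all 3 was the same in each.

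**Figure D1:**
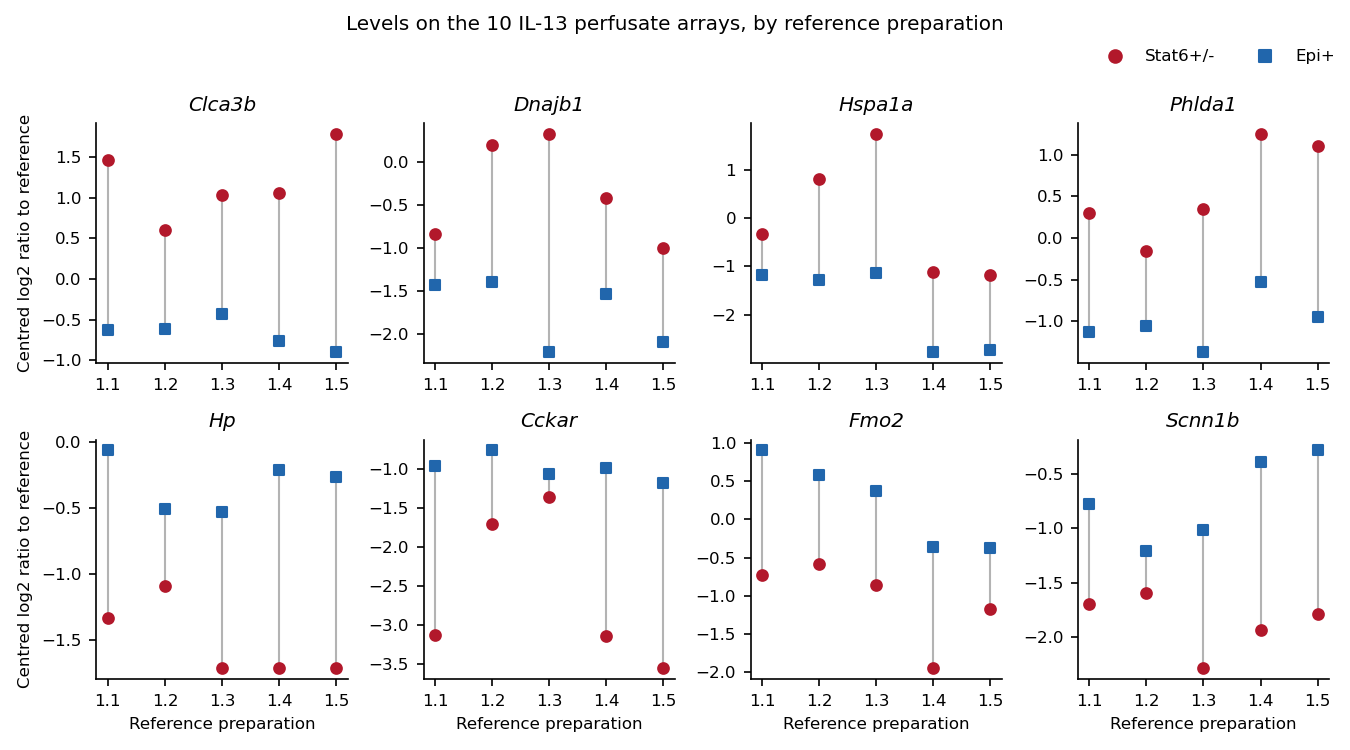
Centred log2 ratios of 8 genes (vertical axes) on the 10 arrays, by reference preparation (horizontal axes). Red circles are Stat6+/-, blue squares Epi+, and grey lines join the arrays of a preparation. Clca3b, Dnajb1 and Hp passed an adjusted p of 0.05 and the other 5 did not.

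Dnajb1 belongs to a list of 36 measured heat shock chaperones and cochaperones, which bind unfolded proteins and hand them on for refolding or degradation. Among the 36, 6 had an unadjusted p under 0.05 with a higher level in Stat6+/- and 1 with a lower one, while the list's median difference was 0.04, against -0.01 over all probes. The promoters of Dnajb1 and of 3 members with a difference in the same direction are shown, to set the called gene beside them. Each holds 250 bases before and 50 after a gene start in RefSeq, on build GRCm38.p6. Capitals mark matches to GAANNTTC or TTCNNGAA, a pair of inverted units of the heat shock element, where each pattern reads the same on both strands. The windows are chr17:34972107-34972406 on the minus strand for Hspa1a, chr4:40722218-40722517 on the plus strand for Dnaja1, chr7:128523333-128523632 on the plus strand for Bag3 and chr8:83607925-83608224 on the plus strand for Dnajb1. RefSeq lists 3 windows for Dnaja1 and 2 for Dnajb1, of which the first is printed.
Hspa1a: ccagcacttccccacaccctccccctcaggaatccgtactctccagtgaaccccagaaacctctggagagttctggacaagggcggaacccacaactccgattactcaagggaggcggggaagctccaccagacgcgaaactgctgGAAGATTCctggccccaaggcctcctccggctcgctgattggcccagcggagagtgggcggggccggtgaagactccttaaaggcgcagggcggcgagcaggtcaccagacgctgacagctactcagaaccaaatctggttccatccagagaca
Dnaja1: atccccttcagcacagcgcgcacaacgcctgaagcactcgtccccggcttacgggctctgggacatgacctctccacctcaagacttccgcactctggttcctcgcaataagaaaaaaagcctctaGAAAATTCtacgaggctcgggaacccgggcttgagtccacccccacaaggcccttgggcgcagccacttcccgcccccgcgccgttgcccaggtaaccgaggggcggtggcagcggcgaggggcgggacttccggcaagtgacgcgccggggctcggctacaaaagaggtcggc
Bag3: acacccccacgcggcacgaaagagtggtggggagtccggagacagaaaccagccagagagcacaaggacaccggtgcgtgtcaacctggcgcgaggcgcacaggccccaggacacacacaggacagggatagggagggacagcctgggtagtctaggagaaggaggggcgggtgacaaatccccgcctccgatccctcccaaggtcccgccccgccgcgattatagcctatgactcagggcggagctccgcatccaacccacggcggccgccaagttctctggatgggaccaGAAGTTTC
Dnajb1: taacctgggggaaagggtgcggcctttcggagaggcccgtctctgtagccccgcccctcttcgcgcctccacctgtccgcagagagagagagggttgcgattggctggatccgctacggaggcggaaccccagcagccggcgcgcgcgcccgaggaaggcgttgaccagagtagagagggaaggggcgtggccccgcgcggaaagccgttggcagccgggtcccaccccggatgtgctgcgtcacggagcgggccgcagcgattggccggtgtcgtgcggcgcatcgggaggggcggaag
The match begins at -104 from the start in Hspa1a, at -124 in Dnaja1 and at 42 in Bag3. No match was found in the other windows of Dnaja1, in either Dnajb1 window or in that of Hspa4. This says only that these letters are not there. At least 1 match was found for 15 of the 28 listed chaperones with a promoter in the table (53.6%) and for 4587 of all 27025 genes in it (17.0%). The list was put together by function, so this share does not bear on the difference between the groups. Of its members higher at an unadjusted p under 0.05, 5 had a promoter in the table. A match was found for 3 of them (60.0%), which are the 3 printed beside Dnajb1. A gene was counted if any of its windows held a match. A match is a description of the letters and not evidence of binding.

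Hspa1a, the stress-inducible Hsp70, had the largest difference of the list. Its levels were -0.33, 0.80, 1.73, -1.11 and -1.18 in Stat6+/- and -1.19, -1.29, -1.13, -2.77 and -2.72 in Epi+. Stat6+/- was the higher in each preparation. The groups overlapped, since both had their lowest levels on preparations 1.4 and 1.5. The difference was 1.80 ± 0.42, with an unadjusted p of 0.000394 and an adjusted p of 0.170. Its probe was printed at 17 spots, each of which gave a higher mean in Stat6+/-, with spot differences from 1.42 to 2.28. Hspa1b, a near-identical copy with its own probe, gave a difference of -0.52 ± 0.71. RNA of either copy may bind to both probes, so both values are uncertain.

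Bag3, the nucleotide exchange factor that couples Hsp70 to autophagy, gave 0.90 ± 0.21 and the same sign in 5 of 5 preparations. Dnaja1, an Hsp40 cochaperone of constitutive Hsp70, gave 1.00 ± 0.26 with 4 of 5 preparations higher. Hspa8, the constitutive Hsp70, gave 0.93 ± 0.37, and Hspa4, an Hsp110 family exchange factor, gave 0.56 ± 0.25. The cytosolic Hsp90 gene Hsp90aa1 went the other way, with -0.61 ± 0.19. None of these 5 passed the adjusted threshold.

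Chaperones of the endoplasmic reticulum and genes of the unfolded protein response, which secretory cells use when protein load rises, were measured with 34 members. Of them, 6 had an unadjusted p under 0.05 with a higher level in Stat6+/-, none with a lower one, and the median was 0.10. Without 1 array the 6 became 3 to 7, with 3 when Stat6+/- replicate 4 or Epi+ replicate 20 was left out, and the median ran from 0.03 without Stat6+/- replicate 5 to 0.14. Dnajb9, an Hsp40 of the reticulum, gave 0.81 ± 0.20 (adjusted p = 0.179) and was higher in 5 of 5 preparations. Chac1, which degrades glutathione, gave 0.67 ± 0.27, and Ddit3, the stress transcription factor CHOP, gave 0.48 ± 0.17. The major chaperone Hspa5 gave -0.12. None of the 34 passed the adjusted threshold.

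For the classical IL-13 targets of mucous cells, the difference between Stat6+/- and Epi+ did not pass. Clca3b, which passed, was not on the list of mucous cell genes. Clca1 (Gob5), a secreted metalloprotease of mucous cells, had levels of 0.73, 1.49, 3.18, 1.98 and 1.52 in Stat6+/- and of 1.29, 2.19, 2.14, 2.05 and 1.11 in Epi+. The groups overlapped, with Stat6+/- the higher in 2 of 5 preparations. The difference was 0.02 ± 0.31 (adjusted p = 0.997), and its 95% interval ran from -0.62 to 0.66. Against Stat6-/- the differences were 3.77 for Stat6+/- and 3.74 for Epi+. These comparisons, and those against PBS, share arrays with each other. Over all probes, 3.14% passed the adjusted threshold between Stat6+/- and Stat6-/-, and 0.486% between Epi+ and Stat6-/-. Against PBS the shares were 7.13% with Stat6+/- and 2.83% with Epi+.

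Muc5ac, the main inducible gel-forming mucin of the airway surface, had levels of 1.93, 2.84, 2.53, 3.43 and 3.10 in Stat6+/- and of 1.33, 1.68, 1.57, 2.47 and 2.11 in Epi+. Stat6+/- was the higher in every preparation, by a difference of 0.94 ± 0.29 (unadjusted p = 0.00514, adjusted p = 0.391). Epi+ itself lay 2.44 above Stat6-/- (adjusted p = 0.000433) and 1.69 above PBS (adjusted p = 0.00789). The gel-forming mucin Muc5b, which the airway makes without IL-13, gave 0.55 ± 0.17, and Spdef, a transcription factor of mucous cells, gave 0.57 ± 0.23. Both were higher in Stat6+/- in 5 of 5 preparations and neither passed. Foxa2, a transcription factor known to restrain mucous cell formation, gave -0.47 ± 0.16. The trefoil peptide Tff1 gave 0.20 ± 0.42 and the trypsin inhibitor Spink1 0.51 ± 0.43. Both were higher in 5 of 5 preparations, without an unadjusted p under 0.05. In all, 29 genes of mucous cells were measured, of which 4 had an unadjusted p under 0.05 with a higher and 1 with a lower level in Stat6+/-, and the median was 0.07. Without Stat6+/- replicate 6 the 4 became 2 and the median 0.02.

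Another 4 genes lay about equally high in the IL-13 groups that may hold Stat6. Slc26a4 (pendrin), an anion exchanger, gave a difference of -0.01 with an interval from -0.60 to 0.57. Atp2a1, a calcium pump of the sarcoplasmic reticulum, gave 0.06 with an interval from -0.50 to 0.63. Scin, an actin-severing protein, gave -0.10 with an interval from -0.59 to 0.38. Alox15, the lipoxygenase that makes oxidised fatty acids, gave 0.14 with an interval from -0.24 to 0.52. Against Stat6-/- the differences for Epi+ were 2.01, 2.60, 2.12 and 1.06 in that order, and all 4 passed. Ccl20, a chemokine for dendritic cells and lymphocytes, was lower in Epi+ than in Stat6-/- by a difference of -1.87 and gave -0.12 between Stat6+/- and Epi+.

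**Figure D2:**
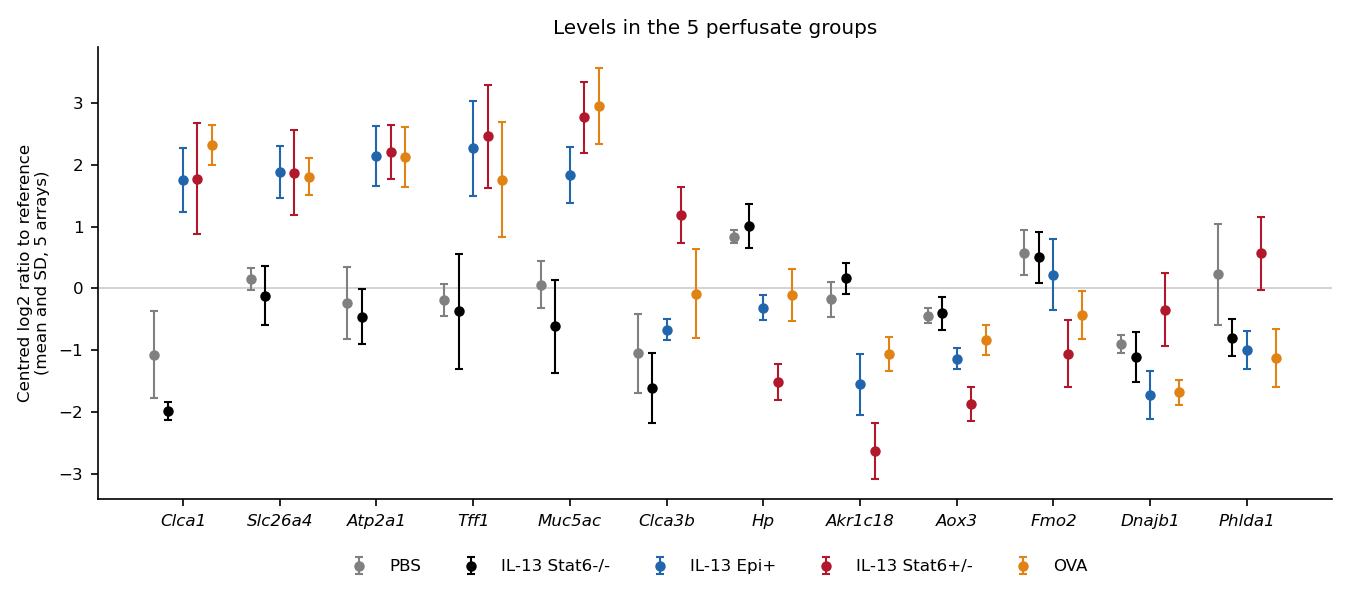
Mean centred log2 ratio (vertical axis) of 12 genes in 5 perfusate groups, with bars for 1 SD, over the arrays with a value (at most 5). Clca1, Slc26a4 and Atp2a1 lie at like mean levels in Epi+ and Stat6+/-, and the Tff1 difference of 0.20 ± 0.42 is imprecise. Clca3b in Epi+ has a mean of -0.67 against 1.19 in Stat6+/-, and Hp and Akr1c18 lie lower in Stat6+/- than in Epi+ and lower in Epi+ than in PBS.

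The Stat6 probe itself gave a difference of -0.00 ± 0.14, and its mean level was 0.65 in both groups against 0.75 in Stat6-/- perfusate. The probe therefore does not separate the genotypes, and no source used here says whether it lies in the deleted part. Il13 gave -0.31 ± 0.21 between the groups, with an interval from -0.76 to 0.14. Among 13 measured genes of the receptor chains, Stat6 and its regulators, only the phosphatase gene Ptpn6 had an unadjusted p under 0.05, with a difference of 0.54 ± 0.19. The decoy receptor Il13ra2 gave -0.23 ± 0.40.

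Subunits of the epithelial sodium channel, which takes up sodium from the airway surface, had lower values in Stat6+/-. Scnn1b had levels of -1.69, -1.59, -2.29, -1.94 and -1.78 in Stat6+/- and of -0.78, -1.20, -1.01, -0.39 and -0.28 in Epi+. There was no overlap, and the difference was -1.12 ± 0.32 (unadjusted p = 0.00242, adjusted p = 0.293). Scnn1g gave -0.96 ± 0.32 and was lower in all 5 preparations. Neither passed the adjusted threshold. Among 27 measured genes of ion transport, 2 were higher and 2 lower in Stat6+/- at an unadjusted p under 0.05, and the median was 0.03.

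Most enzymes that metabolise foreign compounds had lower values in Stat6+/- than in Epi+. Club cells of the airway are known for such enzymes. Of 47 measured members, 40 had a negative difference and 7 a positive one. An unadjusted p under 0.05 was reached by 13 with a lower level (27.7%) and by none with a higher one, and the median difference was -0.28. None passed the adjusted threshold. The median was negative in each preparation, at -0.36, -0.24, -0.16, -0.38 and -0.40, and the 13 became 8 to 19 under the other settings and 10 to 17 without 1 array.

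Fmo2, a flavin monooxygenase of the lung, had levels of -0.72, -0.58, -0.86, -1.95 and -1.17 in Stat6+/- and of 0.90, 0.58, 0.37, -0.36 and -0.37 in Epi+. All Stat6+/- arrays lay below all Epi+ arrays. The difference was -1.28 ± 0.25 (adjusted p = 0.0861), and a second probe for Fmo2 gave -0.36 (unadjusted p = 0.0425). Against PBS, Epi+ gave -0.35 (adjusted p = 0.430) and Stat6+/- gave -1.63 (adjusted p = 0.000520). Fmo2, like Aox3, Aox1 and Akr1c18 below, was among the 14 genes of lowest p with Stat6+/- lower. That choice favours low values on the Stat6+/- arrays, so comparisons of these genes with PBS are no separate support.

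Aldehyde oxidases, which oxidise aldehydes and heterocycles, were measured with a pair of genes. Aox3 had levels of -1.92, -1.48, -1.84, -1.87 and -2.25 in Stat6+/- and of -1.04, -1.23, -0.98, -1.05 and -1.40 in Epi+. Both sets of levels were apart, and the difference was -0.73 ± 0.15 (adjusted p = 0.110). Epi+ lay below PBS by a difference of -0.69 (adjusted p = 0.0174), so Aox3 had a level in Epi+ between those of PBS and Stat6+/-. Aox1 gave -1.22 ± 0.25 (adjusted p = 0.110), while Epi+ against PBS gave 0.25.

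Akr1c18, the 20-alpha-hydroxysteroid dehydrogenase, had levels of -2.09, -2.49, -3.32, -2.48 and -2.75 in Stat6+/- and of -1.60, -1.52, -2.18, -0.79 and -1.66 in Epi+. Stat6+/- was the lower in each preparation, although 1 Epi+ array lay among the Stat6+/- arrays. The difference was -1.08 ± 0.21 (adjusted p = 0.0843), and Epi+ lay below PBS by a difference of -1.37 (adjusted p = 0.00131). Ephx1, the microsomal epoxide hydrolase, gave -0.64 ± 0.13, and Gsta2, a glutathione transferase, gave -0.74 ± 0.24, each lower in 5 of 5 preparations. Adh1, an alcohol dehydrogenase, gave -0.87 ± 0.22, and Sult1a1, a phenol sulfotransferase, gave -0.86 ± 0.25.

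Cytochrome P450 enzymes were tested apart from that list. Of 36 measured, 4 had an unadjusted p under 0.05 with a lower and 1 with a higher level in Stat6+/-, and the median was -0.15. Cyp4b1, a monooxygenase of the lung, gave -0.79 ± 0.19 (adjusted p = 0.171) and was lower in 5 of 5 preparations.

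The list for club and other non-mucous secretory cells had 19 measured genes, which include Hp. Some, such as Gsta3, Aldh1a1 and Cbr2, are also in the foreign compound list, and Cyp2f2 is in that of cytochrome P450. Of these, 3 had an unadjusted p under 0.05 with a lower level, Hp, Cckar and Pon1, and none with a higher level, and the median was -0.17. Cckar, the receptor for cholecystokinin, had levels of -3.14, -1.71, -1.36, -3.15 and -3.56 in Stat6+/- and of -0.97, -0.77, -1.07, -0.99 and -1.18 in Epi+. The groups did not overlap, and the difference was -1.59 ± 0.29 (adjusted p = 0.0654). Pon1, an esterase that hydrolyses organophosphates, gave -0.79 ± 0.19. Scgb1a1, the main secreted protein of club cells, gave -0.14 ± 0.22 with an interval from -0.60 to 0.32. Cyp2f2 gave -0.14 ± 0.16 and Scgb3a2 -0.30 ± 0.24, neither with an unadjusted p under 0.05. Of the 19, 15 had a negative difference and 4 a positive one. Sftpa1, the collectin surfactant protein A, gave -0.66 ± 0.25, with mean levels of -2.58 in Stat6+/- and -1.92 in Epi+ against 0.42 in PBS.

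The genes with the lowest unadjusted p besides those described were of mixed kinds, and none passed. Higher in Stat6+/- were Mcl1, a survival protein of the Bcl2 family, by 1.08 ± 0.19, and Zc3h12a, an RNase that degrades cytokine mRNAs, by 1.42 ± 0.26 (adjusted p = 0.0641 for both). In all 5 preparations Phlda1, a pleckstrin-homology protein, was higher, with a difference of 1.57 ± 0.31. Batf, a transcription factor of the AP-1 family, gave 1.18 ± 0.24, Plaur, the urokinase receptor, 1.35 ± 0.28, and Cd177, a surface protein of neutrophils, 1.51 ± 0.33. Lower in Stat6+/- were Ppfibp2, a liprin, by a difference of -0.94 ± 0.16 (adjusted p = 0.0501), and Dhrs3, a reductase of retinal, by -0.82 ± 0.15 (adjusted p = 0.0684). The helicase subunit Mcm6 gave -0.94 ± 0.20, uromodulin (Umod) -0.59 ± 0.13 and the phosphatidate phosphatase Lpin1 -0.70 ± 0.16.

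For Zc3h12a and Phlda1, Epi+ also lay below PBS. Both were picked for a low p with Stat6+/- above Epi+, which favours low values on the Epi+ arrays. The comparison with PBS reuses these arrays and is no separate support. Over all probes, 2.83% passed between Epi+ and PBS in either direction. Zc3h12a had levels of -0.94, -1.33, -1.11, 0.30 and 0.05 in Stat6+/- and of -2.30, -2.21, -2.39, -1.52 and -1.72 in Epi+, without overlap. Epi+ lay below PBS by a difference of -1.76 (adjusted p = 0.000996), and Stat6+/- gave -0.34 (adjusted p = 0.457). For Phlda1, Stat6+/- levels of 0.30, -0.15, 0.35, 1.24 and 1.10 stood against Epi+ levels of -1.12, -1.06, -1.37, -0.53 and -0.94. These groups did not overlap either. Epi+ against PBS gave -1.23 (adjusted p = 0.0409) and against Stat6-/- -0.21.

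**Figure D3:**
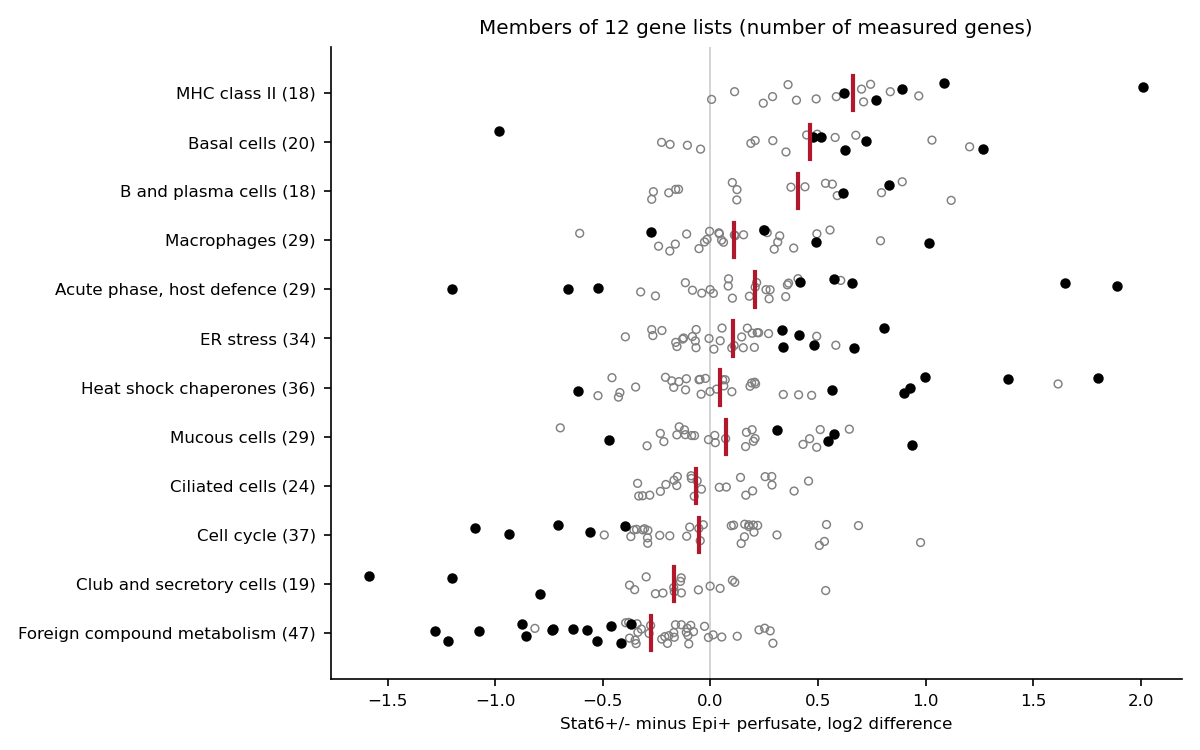
Stat6+/- minus Epi+ log2 differences in perfusate (horizontal axis) of the measured members of 12 gene lists. Filled points had an unadjusted p under 0.05, open points did not, and red bars are the list medians. The foreign compound list has 13 filled points, all negative, and its median is -0.28.

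Acute phase and host defence genes had differences in both directions. Of 29 measured, 5 were higher and 3 lower in Stat6+/- at an unadjusted p under 0.05, and the median was 0.21. Without 1 array the 5 became 3 to 5, and the 3 became 1 without Epi+ replicate 16, while the median was 0.08 without Stat6+/- replicate 8. Saa3, a serum amyloid A protein, had levels of -0.82, -3.51, -3.06, -0.55 and 1.47 in Stat6+/- and of -3.65, -2.76, -3.95, -3.34 and -2.21 in Epi+. Stat6+/- was the higher in 4 of 5 preparations, and the difference was 1.89 ± 0.59 (adjusted p = 0.385). Complement factor B (Cfb) gave 0.57 ± 0.27 and the endotoxin coreceptor Cd14 0.36 ± 0.21. Both were lower in Epi+ than in Stat6-/- perfusate, by differences of -1.78 and -1.12, and these passed. The neutrophil chemokine Cxcl1 gave 0.92 ± 0.53 between the groups and -3.37 for Epi+ against Stat6-/- (adjusted p = 0.00351).

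Among 31 chemokines, 3 had an unadjusted p under 0.05 with a higher and none with a lower level in Stat6+/-. The 3 became 1 without Stat6+/- replicate 6 or Epi+ replicate 17 and 5 without Stat6+/- replicate 5. Ccl11 (eotaxin), which recruits eosinophils, had levels of 0.51, -0.07, -0.04, 1.93 and 1.51 in Stat6+/- and of 0.07, -0.80, -0.70, -1.66 and -0.72 in Epi+. Stat6+/- was the higher in each preparation, with some overlap of the groups, and the difference was 1.53 ± 0.49 (adjusted p = 0.406).

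MHC class II genes, which present antigen on B cells, macrophages and dendritic cells, were all higher in Stat6+/- by their fitted difference, 18 of 18, with a median of 0.66. An unadjusted p under 0.05 was reached by 5 of them and an adjusted one by none. The 5 became 1 without Stat6+/- replicate 6, 2 without Stat6+/- replicate 8 or Epi+ replicate 18, 9 without Stat6+/- replicate 4 and 10 without Stat6+/- replicate 5. The invariant chain gene Cd74 had levels of -0.34, -1.19, -0.62, 2.47 and 1.34 in Stat6+/- and of -1.14, -1.19, -0.96, -0.54 and 0.05 in Epi+. The Stat6+/- arrays of preparations 1.4 and 1.5, replicates 6 and 8, held the 2 highest levels. The difference was 1.08 ± 0.42 (adjusted p = 0.563). The median level of the list ran from -0.75 to 1.37 over the Stat6+/- arrays and from -0.66 to 0.35 over the Epi+ arrays. Its median differences within the preparations were 0.45, -0.01, 0.10, 1.28 and 0.73, and the fitted median ran from 0.30 to 0.96 over the other settings.

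Markers of B and plasma cells had their highest median level on 1 of the same arrays. Of 18 measured, 2 had an unadjusted p under 0.05, both higher, the median was 0.41, and the medians within the preparations were 0.54, 0.10, -0.41, 0.83 and 0.30. That level was 1.19 on Stat6+/- replicate 6, against -0.35 to 0.47 on the remaining 9. Without that array the median difference was 0.09 and the 2 became 0, as they also did without Epi+ replicate 18, while 6 were higher without Stat6+/- replicate 4. Markers of T and NK cells likewise had their highest median level on Stat6+/- replicate 6, at 1.23 against -0.18 to 0.59 on the remaining 9, with a median difference of 0.96 within preparation 1.4.

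Basal cell and stratified epithelium genes had a median of 0.46 and 6 of 20 higher at an unadjusted p under 0.05, with 1 lower. Their medians within the preparations were 0.27, -0.02, -0.15, 0.73 and 0.50. The 6 became 1 without Epi+ replicate 20 and 2 without Stat6+/- replicate 6, 7 or 8 or Epi+ replicate 18, and the median was 0.28 without Stat6+/- replicate 6. Sprr2a1, a protein of the cornified envelope, was higher in all 5 preparations by 1.27 ± 0.30 (adjusted p = 0.170). Of the 20 members, 15 had a positive difference and 5 a negative one, and the 1 lower member was Krt4 at -0.985 ± 0.444. The keratins Krt14, Krt5 and Krt15 gave 0.58 ± 0.28, 0.35 ± 0.23 and 0.21 ± 0.23, and Trp63 gave -0.11 ± 0.28. Krt5, Krt15 and Trp63 did not reach an unadjusted p of 0.05. The part of B cells, T and NK cells and antigen-presenting cells in the differences on these arrays was not tested.

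**Figure D4:**
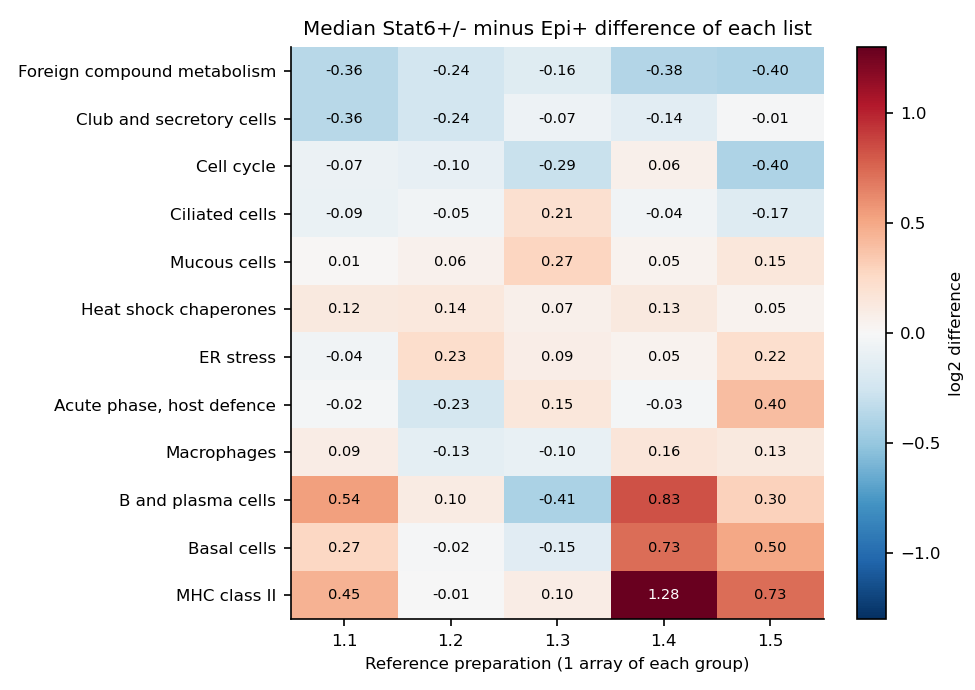
Median Stat6+/- minus Epi+ log2 difference of 12 gene lists (rows) within each reference preparation (columns), with 1 array of each group in each. The foreign compound list is negative in all 5 preparations, and MHC class II is highest on preparation 1.4, at 1.28.

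Genes of other cell types gave few differences. Ciliated cell genes had no member of 24 with an unadjusted p under 0.05 and a median of -0.07, with Foxj1, the transcription factor of motile cilia, at 0.25 ± 0.26. Keratins and junctions shared by airway epithelial cells gave 2 of 21, both higher, and a median of 0.14. Macrophage and dendritic cell genes gave 3 higher and 1 lower of 29, with a median of 0.11. Genes of alternative activation, which macrophages induce with IL-4 and IL-13, gave 2 of 22, the transglutaminase Tgm2 and Ccl11, both higher. Arg1, the arginase of such macrophages, gave -0.22 ± 0.22. In T and NK cells 1 of 25 genes was lower, the granzyme Gzmb by a difference of -0.85 ± 0.20, and none was higher. Over the whole list the median difference was 0.07, and it was -0.10 without Stat6+/- replicate 6.

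The counts were 0 of 19 for eosinophils, basophils and mast cells and 1 lower of 12 for neutrophils. The neutrophil median was -0.04. Without Epi+ replicate 16 that list had 2 higher, 0 lower and a median of 0.13. Other counts were 0 of 19 for endothelial cells, 0 of 8 for red cells and platelets, and 1 lower of 13 for the alveolar epithelium, which was Sftpa1. Muscle genes gave 4 higher of 29 with a median of 0.01, among them the cardiac troponin Tnnt2 by 0.89 ± 0.31. Fibroblast and matrix genes gave 1 higher and 2 lower of 34. Of the sex-linked genes 4 were measured and none had an unadjusted p under 0.05, but Eif2s3y, on the Y chromosome, was at -3.04 on Epi+ replicate 16 against 0.07 to 0.28 on the other Epi+ arrays. A second Eif2s3y probe gave a group difference of -0.29 ± 0.46.

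Cell cycle and DNA replication genes had 5 of 37 lower in Stat6+/- at an unadjusted p under 0.05, none higher, and a median of -0.05. Mcm6, a subunit of the replicative helicase, had levels of 0.34, 0.02, 0.69, 0.15 and 0.30 in Epi+. In Stat6+/- it was at -0.73, -0.73, -0.07 and -0.68 on preparations 1.1, 1.2, 1.4 and 1.5, and lowest on 1.3. All Stat6+/- levels lay below all Epi+ levels. Gmnn, an inhibitor of replication licensing, gave -1.09 ± 0.27, and Mcm2 gave -0.71 ± 0.21. None of the 5 passed the adjusted threshold.

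The remaining lists gave small counts at an unadjusted p under 0.05. Lipid uptake and sterol synthesis gave 2 higher and 2 lower of 32, with the fatty acid transporter Cd36 at -1.13 ± 0.28. Proteases and their inhibitors gave 3 higher and 1 lower of 40, with Plat, the tissue plasminogen activator, at 0.69 ± 0.21. Immediate early genes gave 3 higher and 2 lower of 38. Interferon response genes gave 3 higher and 1 lower of 29, MHC class I 0 of 14 and eicosanoid enzymes 1 lower of 22. In the Clca family, Clca3a1 gave 0.30.

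Whole lung of the same genotypes, Stat6+/- and Stat6-/-, Epi+, both with IL-13, was measured on 5 arrays per group against other reference pools. There, 550 of 16096 probes passed (3.42%), of which 386 were higher in Stat6+/- (2.4%) and 164 lower (1.02%). The difference between the tissues was tested directly in 1 fit, and 345 of 15370 probes passed (2.24%). Of these, 234 had the lower Stat6+/- minus Epi+ difference in perfusate (1.52%) and 111 the higher (0.722%). The lung arrays had a wider spread of deposited medians, which differed between the groups by -0.21 before centring, and without centring the 550 calls became 77 and the 345 became 82. The lung count ranged from 273 to 806 when 1 array was left out.

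Of 28 macrophage and dendritic cell genes tested in lung, 18 were higher in Stat6+/- and none lower, and 14 had a lower difference in perfusate than in lung. Cd68, a lysosomal protein of macrophages, gave 2.94 in lung and -0.28 in perfusate, which differed (adjusted p = 4.1e-07). Arg1 gave 4.88 in lung and -0.22 in perfusate (adjusted p of the difference 0.000126). Proteases and cathepsins had 12 of 37 with a lower difference in perfusate, and genes of alternative activation 6 of 22.

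Atp2a1 gave 2.26 in lung against 0.06 in perfusate (adjusted p of the difference 0.00777), and Nadsyn1, an enzyme of NAD synthesis, gave 2.20 against -0.09 (0.00718). Clca1 gave 1.03 in lung and 0.02 in perfusate, and the difference between them did not pass (adjusted p = 0.501). Reticulum chaperones had 11 of 34 higher in Stat6+/- lung, and 5 had a lower difference in perfusate than in lung, among them Hspa5 and Xbp1.

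Hp went in opposite directions, -1.20 in perfusate and 0.50 in lung, and the tissues differed (adjusted p = 0.000203). Pon1 was lower in Stat6+/- lung by a difference of -2.56 and gave -0.79 in perfusate, which also differed (adjusted p = 0.000276). For Clca3b the lung difference was 1.24 (adjusted p = 0.475), for Dnajb1 0.75 and for Fmo2 -1.39, and none of these 3 differed from its perfusate value at the adjusted threshold. Foreign compound enzymes had 4 of 46 lower in Stat6+/- lung and 1 higher, and none of the 46 passed the test of the tissues.

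**Figure D5:**
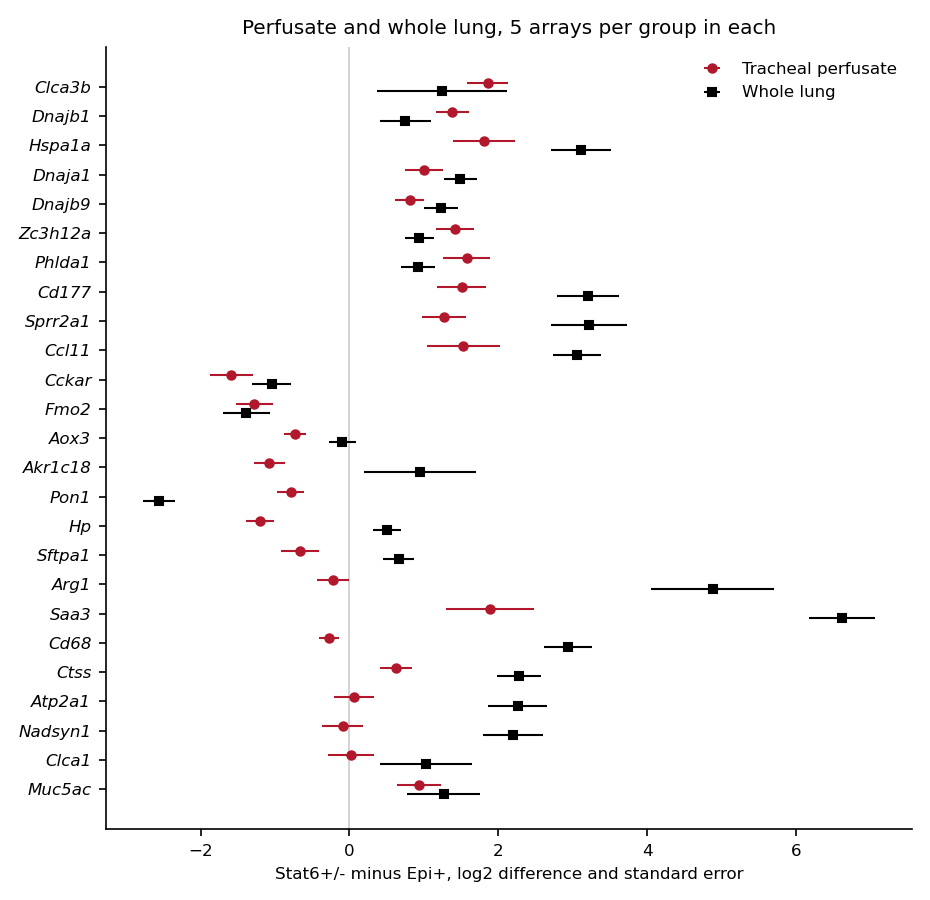
Stat6+/- minus Epi+ log2 difference with its standard error (horizontal axis) of 25 genes in tracheal perfusate (red circles) and whole lung (black squares), with 5 arrays per group in each tissue. Saa3, Arg1 and Cd68 lie far higher in lung, at 6.62, 4.88 and 2.94, and Hp lies on opposite sides of 0.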

How the data were processed

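Log2 ratios of 2-colour spotted arrays, 1 per spot, were used as deposited by the authors. No source used here gives scanner, background correction or normalization, and depth has no counterpart, so the number of arrays limits the precision. Raised to the power of 2, all values were linear ratios of 3 decimals. Each array was centred on its own median, since deposited medians ranged from -0.62 to -0.10 on the 10 arrays, with group means that differed by 0.0975. Spots of 1 accession were averaged to 18272 probes. Probes with at least 3 values in every perfusate group were fitted in limma 3.58.1 (R 4.3.3) on 25 arrays, with the reference preparation as a block, which carried 45.0% of the variance within groups on 20% of its degrees of freedom. The script was tested on simulated data. A gene is given by 1 probe, that with the most perfusate values.

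Groups and replicate numbers came from the titles. The comparison, the 34 lists and the genes named were chosen with earlier results of these data known. Set to be named were every probe that passed, up to 4 members per list and a fixed set of 40 genes. Of the 14 genes with the lowest p in each direction, those with 1 sign in all preparations were added, 14 higher and 12 lower. Some of these, such as Samd8 and Capn7, are not described. Genes outside these rules, such as Hspa8, Hspa4, Hsp90aa1, Hspa5, Xbp1, Adh1, Sult1a1, Krt4, Krt5 and Trp63, were chosen after their values were seen. Whole lung used 15 IL-13 arrays with the reference pool as a block, and the tissue test 40 arrays. Alternatives changed centring, scaling, the block, the arrays fitted, filters, weights and single arrays.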

Additional observations from a re-analysis of the deposited data

Results flagged for a closer look

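The difference between Stat6+/- and Epi+ itself differed between perfusate and whole lung for 19 of the 164 named probes, by limma's test of the difference. Some of the 164, such as Spdef, were not tested. Over all 15370 probes tested, 345 passed (2.24%), which became 82 with values as deposited and 60 with scaling. Many named genes were picked for a low perfusate p, and the tissue test reuses those arrays. The share among them therefore cannot be set against that over all probes. Values are perfusate minus lung on the log2 scale, with the perfusate and the lung difference in turn. Hp gave -1.70, from -1.20 and 0.50 (adjusted p = 0.000203). For Pon1 the value was 1.77, from -0.79 and -2.56 (adjusted p = 0.000276). The value of Cd36 was -1.43, from -1.13 and 0.30 (adjusted p = 0.0276). Saa3 gave -4.73, from 1.89 and 6.62 (adjusted p = 0.000684). For Myl4 the value was 2.44, from 0.70 and -1.73 (adjusted p = 0.000634). The value of Tnnt2 was 2.23, from 0.89 and -1.34 (adjusted p = 0.00201). Ctss gave -1.66, from 0.62 and 2.28 (adjusted p = 0.00828). For Sftpa1 the value was -1.32, from -0.66 and 0.66 (adjusted p = 0.029). The value of Mt2 was -2.65, from 0.74 and 3.39 (adjusted p = 0.0373). Tbxas1 gave -2.73, from -0.48 and 2.25 (adjusted p = 0.00144). For Ltf the value was -2.73, from -0.52 and 2.20 (adjusted p = 0.000458). The value of Cx3cl1 was 1.44, from 0.47 and -0.97 (adjusted p = 0.00853). Cd68 gave -3.22, from -0.28 and 2.94 (adjusted p = 4.1e-07). For Pigr the value was -1.97, from 0.54 and 2.51 (adjusted p = 0.001). The value of Ccl2 was -2.67, from 0.91 and 3.58 (adjusted p = 0.0315). Ppbp gave 1.40, from -0.21 and -1.60 (adjusted p = 0.02). For Arg1 the value was -5.10, from -0.22 and 4.88 (adjusted p = 0.000126). The value of Nadsyn1 was -2.29, from -0.09 and 2.20 (adjusted p = 0.00718). Atp2a1 gave -2.20, from 0.06 and 2.26 (adjusted p = 0.00777).

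Single arrays stood far from the other 4 of their group, by Dixon's criterion at the 95% level, for 14 of 325 gene and group pairs tested. Chance flags about 1 in 20. Irf1 was at -1.27 on Epi+ replicate 16, against -0.79 to -0.63 on the others. On Epi+ replicate 17 Cish was at -2.01, against -0.10 to 0.07. The level of Ift172 was 0.36 on Epi+ replicate 16 and 0.68 to 0.77 on the others. Lpcat1 was at -0.72 on Stat6+/- replicate 4, against 0.30 to 0.71 on the others. On Epi+ replicate 17 Prdm1 was at -3.64, against -0.36 to -0.06. The level of Epx was -1.23 on Epi+ replicate 19 and 0.04 to 0.54 on the others. Spint1 was at -0.72 on Epi+ replicate 16, against 0.10 to 0.27 on the others. On Epi+ replicate 20 Cd3e was at -0.28, against 0.26 to 0.43. The level of Stat3 was 1.36 on Epi+ replicate 16 and 0.39 to 0.67 on the others. Flt1 was at -0.78 on Epi+ replicate 18, against 0.05 to 0.18 on the others. On Epi+ replicate 19 Spink1 was at 2.24, against 3.16 to 3.37. The level of Eif2s3y was 0.81 on Stat6+/- replicate 8 and -0.15 to 0.11 on the others. Eif2s3y was at -3.04 on Epi+ replicate 16, against 0.07 to 0.28 on the others. On Stat6+/- replicate 4 Xist was at -5.70, against -2.61 to -1.93. Of the 14 values, 5 came from Epi+ replicate 16, whose label gives no amplification step. Whether that step bears on these values was not tested.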

How the results depend on the processing

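The 4 perfusate calls became 0 with values as deposited, with quantile normalization, with scaling to a common spread, with only the 10 arrays of both groups and with only the 15 IL-13 arrays. They became 2 without the reference block, with a minimum of 2 arrays per group and with robust empirical Bayes, 7 with a value on every perfusate array and 203 with array weights. Every spot tested on its own gave 6 and values beyond 6 taken as missing gave 4. Leaving out 1 array gave 0 to 18 calls. Leaving out preparation 1.1, 1.4 or 1.5 gave 0, 1.2 gave 2 and 1.3 gave 5. At an unadjusted p under 0.05 the count was 669 as deposited, 1189 with quantile normalization, 1035 with scaling, 1410 with 10 arrays and 1516 with 15. The cause of the changes was not tested. The whole lung count of 550 became 77 as deposited, 282 without the block, 109 with only the 10 arrays and 210 with scaling, and 273 to 806 without 1 array. The tissue count of 345 became 82 as deposited, 60 with scaling and 239 to 506 without 1 array. Scaling in lung and in the tissue test was chosen after seeing the data. No called value reversed under the settings run. Of the values of the named genes, 4086 kept their side of the threshold or stayed within the spread, 66 passed where the reported value had not, 69 lost the call and 2, both of Tff1, moved by more than the spread. Among them 14 genes, such as Clca1, Stat6, Slc26a4 and Atp2a1, changed sign under some setting, and none of the 14 passed under any. Of list medians 876 moved by less than the spread of the preparations and 8 by more. Leaving out 1 array moved a count of members at an unadjusted p under 0.05 by over 1.5 times, or to or from 0, in 31 of the 34 lists, the exceptions being foreign compound enzymes, the Clca family and sex-linked genes. The perfusate pairs are those of the reference preparations, which the reported values hold as a block. Whole lung groups share replicate numbers, and a replicate block beside the pool, chosen after seeing the data, gave 61 calls in place of 550. Of 4 Stat6+/- lung arrays with a numbered partner none correlated best with it, so the numbers are not taken as pairs.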
